A study of Mus musculus with 20 samples.

Results

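Methylation was described for the promoter windows of 2 imprinted regions of mouse chromosome 6 in single blastocysts, the region of Peg10 and Sgce and the region of Mest. Windows were taken by position alone on build GRCm39, with a start from 4700000 to 4800000 or from 30690000 to 30800000. This gave 10 of the 54034 deposited windows of 3500 bp, of which 3 lay in the Peg10-Sgce region and 7 in the Mest region. Of the 10 windows, 9 could be tested, for which 3 embryos of each group had to have a value. Copg2, a neighbour of Mest, was searched for as well, but none of the 10 windows could be tied to its start.

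The samples were 20 single blastocysts, 10 from the control group (replicates 1 to 10) and 10 from the Padi6-mutant group (replicates 11 to 20). The series text places the mutation, Padi6 P620A, in the oocytes from which the mutant embryos came. The sources used here do not give the genotype of the control mothers or of the fathers, nor the strain, sex or litter of an embryo. Genomic DNA was bisulfite-sequenced after the messenger RNA of the same embryo had been removed. The labels call the material blastocyst, and a methylation table with no gene names gives no marker expression to check this with.

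An imprinted gene is expressed from the copy of one parent. At Peg10-Sgce and at Mest the maternal copy is methylated at the promoter in the oocyte and kept silent, while the paternal copy is unmethylated and expressed. This methylation has to be copied at each division of the early embryo, against genome-wide loss, by the maintenance methyltransferase DNMT1 with its partner UHRF1, and it is protected by the zinc finger protein ZFP57. A window over such a promoter therefore mixes methylated and unmethylated copies. PADI6 is part of the subcortical maternal complex, an assembly of oocyte proteins that the embryo inherits.

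The sequences below show the CpG sites, in capitals, of 3 RefSeq promoters of the Mest region (build GRCm38.p6, strand of the gene, 250 bases before to 50 after the start). They were chosen with the control levels of the windows over them known. Control means were 39.99% over the main Mest start, 2.78% and 10.97% over the upstream start, and 6.94% over Cep41.
Mest main start, chr6:30737800-30738099, plus strand: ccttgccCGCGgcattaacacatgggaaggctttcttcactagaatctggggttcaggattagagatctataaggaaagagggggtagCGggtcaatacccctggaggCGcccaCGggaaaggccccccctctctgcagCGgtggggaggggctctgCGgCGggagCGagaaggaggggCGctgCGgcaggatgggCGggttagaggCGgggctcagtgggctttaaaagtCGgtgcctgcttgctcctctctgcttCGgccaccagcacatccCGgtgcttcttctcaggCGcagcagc
Mest upstream start, chr6:30733256-30733555, plus strand: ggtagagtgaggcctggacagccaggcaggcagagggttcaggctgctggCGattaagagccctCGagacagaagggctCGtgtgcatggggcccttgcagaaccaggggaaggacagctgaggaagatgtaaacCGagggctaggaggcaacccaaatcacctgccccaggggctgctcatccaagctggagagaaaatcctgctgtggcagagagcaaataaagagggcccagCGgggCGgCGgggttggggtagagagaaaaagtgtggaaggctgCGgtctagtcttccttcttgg
Cep41, chr6:30693700-30693999, minus strand: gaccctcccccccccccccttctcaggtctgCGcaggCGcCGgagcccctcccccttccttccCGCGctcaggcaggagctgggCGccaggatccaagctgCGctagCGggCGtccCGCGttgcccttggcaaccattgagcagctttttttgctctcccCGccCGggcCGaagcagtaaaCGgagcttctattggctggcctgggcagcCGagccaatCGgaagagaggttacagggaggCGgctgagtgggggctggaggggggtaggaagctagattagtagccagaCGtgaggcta

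The main Mest promoter held 17 CG dinucleotides, more than 68.6% of the 32851 promoters of the table. The upstream Mest promoter held 8, close to the table median of 7, and the Cep41 promoter held 19. The motif TGCCGC, the core of the sequence that ZFP57 binds when it is methylated, was searched on both strands. The main Mest promoter held 2 matches on the strand opposite to the gene, 242 and 67 bases before the start, where GCGGCA is read on the printed strand. The upstream Mest and Cep41 promoters held none, and 11.6% of all promoters of the table held at least 1. The Copg2 promoter, which is not printed here, held 25 CG dinucleotides and 1 match, 116 bases before its start. A match of these letters is a description and not a measured binding site.

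The windows carry no gene names, so names were given by the spacing of gene starts. Gene starts of the reference table (build GRCm38.p6) were set against window anchors (build GRCm39) up to 20 bp apart. Windows begin 3000 bases before a start and end past it. Around the Mest region, 17 gene starts of the table met a window anchor at one common offset, and at most 1 did at any other offset within 20 bp. On that spacing the window at chr6:30693249-30696748 was that of Cep41, a centrosome and cilium gene, and the window at chr6:30738298-30741797 that of Mir335, a microRNA gene inside Mest. The main Mest start, 3249 bp before Mir335, fell in the window at chr6:30735424-30738923, called the Mest start window here. No window had its anchor at a Mest start on that spacing, so the name says only that the window holds the start. The upstream Mest start fell in both windows before it (chr6:30731417-30734916 and chr6:30732963-30736462). The windows at chr6:30716872-30720371 and chr6:30720546-30724045 lay between Cep41 and Mest and met no gene start.

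In the Peg10-Sgce region the first 2 windows, chr6:4744306-4747805 and chr6:4746708-4750207, are those expected of a head-to-head pair. Read as a plus-strand and a minus-strand window, their anchors lay 99 bp apart, and the starts of Peg10 and Sgce lie 102 bp apart in the reference table. They are called the Peg10 window and the Sgce window, and they share 1098 bp over the common promoter. There the common offset was less distinct, with 8 gene starts against 5 at the next. At that offset Peg10 met the anchor of its window and Sgce did not. The name of the Sgce window therefore rests on the distance within the pair. A further window, chr6:4767900-4771399, began 17693 bp past the Sgce window and met no gene start.

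Coverage differed between the groups, and no read depth is known. Of the 10 windows described here, control embryos covered 2 to 10 (median 8.5) and mutant embryos 0 to 9 (median 3). Over the whole table the medians were 37253.5 windows per control embryo and 12331.5 per mutant embryo. Densely covered embryos, with at least 25000 windows, numbered 6 in the control and 3 in the mutant group. Exact values of 0% made up 32.1% to 58.6% of all values in densely covered embryos and 58.4% to 76.1% in sparsely covered ones, which are most of the mutant group. Levels in densely covered embryos alone are given beside the results.

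Of the 9 tested windows, the mutant mean was below the control mean in 7, in 6 by 20 percentage points or more, and above it in 2. The median difference was -21.1 points, with a median level of 31.7% in control and 10.4% in mutant embryos. Over all 37645 tested windows the median difference was -1.07 points, 55.9% had a lower mean in mutant embryos and 9.91% were lower by at least 20 points. The median control level of all these windows was 9.66%, and 14.8% of them had a control mean of at least 30%, so most could not fall by 20 points. No window of the 2 regions passed the threshold: 0 of 9 had a limma p under 0.05 after Benjamini-Hochberg adjustment over all tested windows, against a background of 0.0372% (14 windows). At an unadjusted limma p under 0.05 there were 2 of 9, against 5.75% of all windows, and an exact rank-sum test also gave 2 of 9 unadjusted, against 4.64%. The embryos are the replicates, and the p-values set the group difference against the spread between embryos, taken as independent. Some embryos can share a mother, in which case the p-values can be too small. Fewer methylated copies in every cell and fewer cells with methylated copies cannot be told apart in whole blastocysts.

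**Figure D1:**
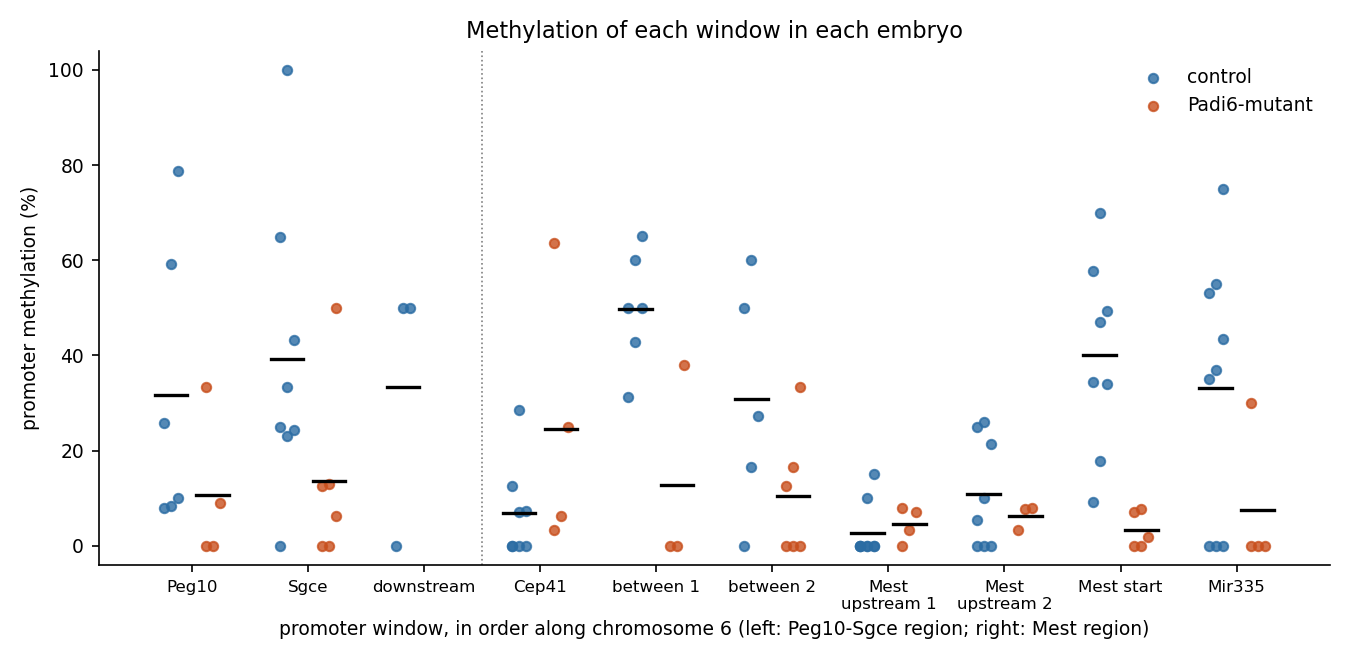
Methylation level in percent (vertical axis) of each of the 10 windows, in order along chromosome 6, with a point per embryo and a black bar at the group mean; "between 1" and "between 2" lie between Cep41 and Mest, and "downstream" is the last window of the Peg10-Sgce region. At the Mest start window the 8 control embryos lie between 9.30% and 70% and the 5 mutant embryos between 0% and 7.81%; at the 2 upstream Mest windows both groups lie under 26%.

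Mest, also known as Peg1, encodes a protein of the alpha/beta hydrolase fold and is expressed from the paternal copy in mesodermal and extraembryonic tissue. In the Mest start window the 8 control embryos ran from 9.30% to 70.0% with a median of 40.8%. The mutant embryos stood at 7.81% (replicate 11), 7.14% (replicate 12), 1.89% (replicate 14), 0% (replicate 15) and 0% (replicate 17). The groups did not overlap there, as every mutant embryo lay below the lowest control embryo, and this held for 1.02% of all tested windows. The 2 mutant embryos at 0% are sparsely covered, and 67.98% (replicate 15) and 75.1% (replicate 17) of all their values were 0%. The control mean was 39.99% ± 20.2 (SD, n = 8) and the mutant mean 3.37% ± 3.84 (SD, n = 5), which left 8.42% of the control level. The difference of -36.6 points (SE 8.90) had a limma adjusted p of 0.330 and an unadjusted exact permutation p of 0.00389 (two-sided). A larger loss was seen in 2.17% of all tested windows, most of which have too low a control level to lose as much. The densely covered embryos stood at 40.7% (6 control) and 5.61% (3 mutant), -35.1 points apart.

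The Mir335 window overlaps the Mest start window by 626 bp and covers the first part of the Mest gene body. Its gene gives mature microRNAs of which miR-335-5p is printed with its seed (bases 2 to 8) in capitals, to identify the product; the microRNA itself was not measured.
mmu-miR-335-5p: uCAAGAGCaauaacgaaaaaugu

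The 9 control embryos ran from 0% to 75.0% in the Mir335 window, with a median of 36.8% and 3 of them at 0%. The mutant embryos stood at 0% (replicates 11, 15 and 17) and 30% (replicate 14). The groups overlapped through the 3 control embryos at 0%, while 6 control embryos lay above the highest mutant embryo. Means were 33.2% ± 27.5 (SD, n = 9) and 7.50% ± 15.0 (SD, n = 4), and the difference of -25.7 points (SE 14.1) was within the spread between embryos (limma adjusted p = 0.834, exact permutation p = 0.102). Densely covered embryos stood at 31.1% (n = 6) and 15.0% (n = 2).

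The 2 windows over the upstream Mest start carried little methylation in either group. They share 1954 bp, and the second shares 1039 bp with the Mest start window. In the first, 7 of 9 control embryos were at 0% and the others at 10% and 15%, and the mutant embryos stood at 8% (replicate 11), 7.14% (replicate 12), 3.33% (replicate 14) and 0% (replicate 16). Means were 2.78% ± 5.65 (SD, n = 9) and 4.62% ± 3.69 (SD, n = 4), 1.84 points apart (SE 3.36, limma adjusted p = 0.889), and 1.99 points apart in densely covered embryos. In the second, control embryos ran from 0% to 25.9% with a median of 7.70%, and the mutant embryos from 3.33% to 8% with a median of 7.69%. Its difference was -4.63 points (SE 6.75, limma adjusted p = 0.865). It was -8.28 points in densely covered embryos, -2.62 without control replicate 4 and -2.49 without control replicate 5. In neither window was the difference larger than the spread between embryos. Levels within Mest thus differed by window: the control median was 0% in the first upstream window and 40.8% in the Mest start window, which begins 4007 bp further on.

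As a mean per embryo over the Mest start and Mir335 windows, control embryos stood at 38.5% ± 23.5 (SD, n = 9) and mutant embryos at 5.40% ± 6.61 (SD, n = 5). Control values ran from 4.65% to 75.0% and mutant values from 0% to 15.9%, so that 3 of the 5 mutant values were under the whole control range and 7 of 9 control embryos above the highest mutant embryo. The 2 upstream windows stood at 6.26% ± 7.16 (SD, n = 9) and 4.69% ± 3.75 (SD, n = 4). Over all 4 Mest windows the means were 21.9% ± 10.04 (SD, n = 9) and 3.82% ± 4.35 (SD, n = 6), and the mutant mean was -18.1 points from the control mean (SE 3.79), with 6 of 6 mutant embryos on that side. In densely covered embryos it was -15.01 points. That value averages windows of unlike level, and embryos differ in which of them they cover, so the 2 pairs are also given apart. These means are descriptions with no test, since the windows were picked with earlier results of these data known.

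**Figure D2:**
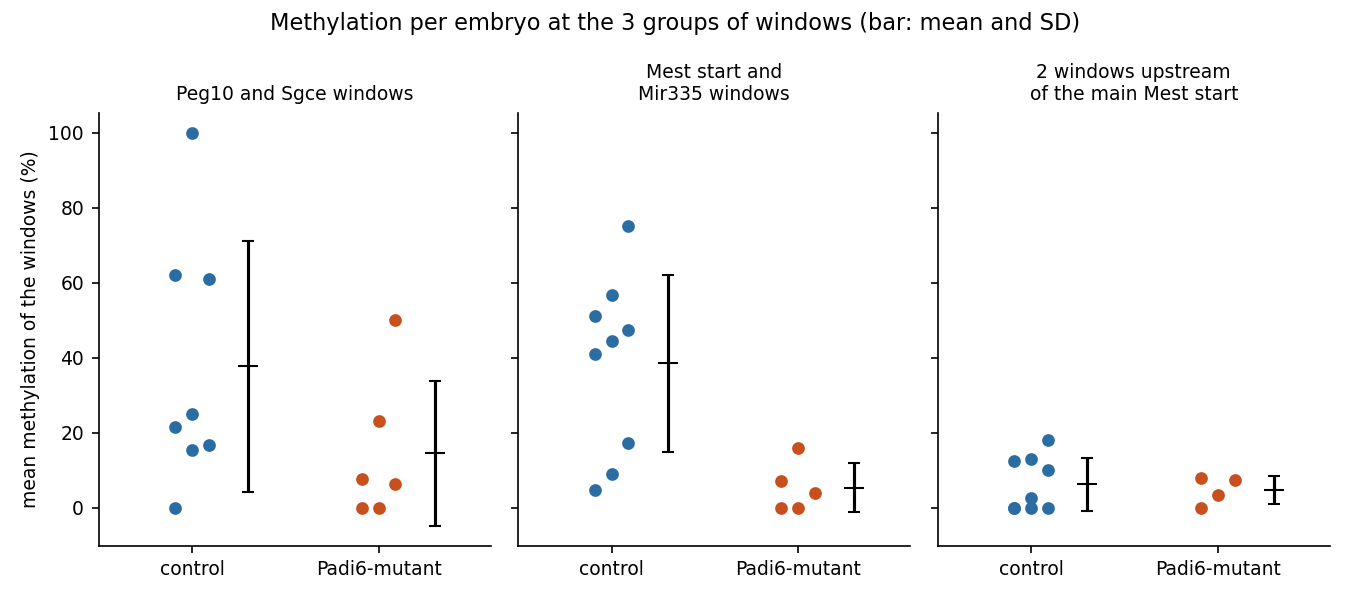
Mean methylation in percent per embryo (points) over the Peg10 and Sgce windows, the Mest start and Mir335 windows, and the 2 upstream Mest windows, with the group mean and SD as black bars beside the points. Mutant means are 14.5%, 5.40% and 4.69%, against control means of 37.7%, 38.5% and 6.26%.

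The windows between Cep41 and Mest were also partly methylated in control embryos. In the first, chr6:30716872-30720371, the 6 control embryos ran from 31.3% to 65.0% with a median of 50%, the narrowest control spread relative to the level among the 10 windows (SD 12.1 around a mean of 49.9%). The mutant embryos stood at 38.1% (replicate 11), 0% (replicate 12) and 0% (replicate 19). Replicate 11 lay within the control range, and the other 2 mutant embryos lay below it. The mutant mean was 12.7% ± 22.0 (SD, n = 3). The difference was -37.2 points (SE 10.4), with a limma adjusted p of 0.544. The unadjusted exact permutation p was 0.0238, where 6 against 3 embryos cannot go below 0.0119. Densely covered embryos stood at 51.3% (n = 5) and 19.05% (n = 2).

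In the second, chr6:30720546-30724045, control embryos stood at 0% (replicate 2), 16.7% (replicate 1), 27.3% (replicate 4), 50% (replicate 10) and 60% (replicate 3). The mutant embryos ran from 0% to 33.3% with a median of 6.25%, and 3 of 6 were at 0%. The groups overlapped, and the difference of -20.4 points (SE 10.9) did not pass the test (limma adjusted p = 0.834, exact permutation p = 0.121). Without control replicate 3 it was -13.07 points. Densely covered embryos stood at 30.8% (n = 5) and 15.3% (n = 3).

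The Cep41 window had a higher mean in mutant embryos. Its 8 control embryos ran from 0% to 28.6% with a median of 3.57%, and the mutant embryos stood at 3.28% (replicate 14), 6.25% (replicate 11), 25% (replicate 12) and 63.6% (replicate 15). The means of 6.94% ± 9.94 (SD, n = 8) and 24.5% ± 27.8 (SD, n = 4) differed by 17.6 points (SE 10.1, limma adjusted p = 0.834, exact permutation p = 0.109). The groups overlapped, and the mean rests on replicate 15, a sparsely covered embryo: without it the difference was 4.57 points, and in densely covered embryos 4.35 points.

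Copg2 encodes a coat protein subunit of vesicles that move between Golgi and endoplasmic reticulum, and it lies tail to tail with Mest. Its start lies 155495 bp past Mir335 in the reference table, far beyond the last of the 10 windows, and no window of the file had its anchor at that spacing. Its promoter level is therefore not reported here.

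Peg10 is a retrotransposon-derived gene that the mouse placenta requires, and Sgce encodes epsilon-sarcoglycan, a membrane protein of the dystrophin-associated complex; both are expressed from the paternal copy. In the Sgce window the 8 control embryos ran from 0% to 100% with a median of 29.2%. The 6 mutant embryos ran from 0% (replicates 13 and 17) to 50% (replicate 16) with a median of 9.40%, and replicates 14, 11 and 12 stood at 6.31%, 12.5% and 13.04%. The groups overlapped over the whole mutant range, because control replicate 6 was at 0%, and 2 control embryos lay above the highest mutant embryo. Means were 39.2% ± 30.8 (SD, n = 8) and 13.6% ± 18.7 (SD, n = 6), and the difference of -25.6 points (SE 13.6) did not pass the test (limma adjusted p = 0.834, exact permutation p = 0.0949). Densely covered embryos stood at 35.7% (n = 6) and 10.6% (n = 3), a difference of -25.04 points. Without control replicate 9, at 100%, the difference over all embryos was -16.9 points.

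In the Peg10 window the 6 control embryos, all densely covered, ran from 7.89% to 78.8% with a median of 17.9%. The mutant embryos stood at 0% (replicates 11 and 13), 9.09% (replicate 14) and 33.3% (replicate 12). The groups overlapped, and 2 control embryos, replicates 1 and 2 at 59.3% and 78.8%, lay above every mutant embryo. The difference was -21.1 points (SE 15.6, limma adjusted p = 0.834, exact permutation p = 0.262). It was -11.6 points without control replicate 2, and -17.5 points in densely covered embryos, where the mutant mean was 14.1% (n = 3). The last window of the region had values in 3 control embryos (0% in replicate 2, 50% in replicates 3 and 4) and in no mutant embryo, and could not be compared.

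Averaged over the windows of the region, control embryos stood at 37.6% ± 31.1 (SD, n = 8) and mutant embryos at 14.5% ± 19.3 (SD, n = 6). The difference was -23.1 points (SE 13.5), with 5 of 6 mutant embryos below the control mean and none below the lowest control embryo. Control replicate 9, a sparsely covered embryo with 1 value of 100% in the region, carried much of it: without this embryo the difference was -14.2 points. In densely covered embryos it was -21.1 points. The means of control replicates 2, 3 and 4 include the last window, in which no mutant embryo had a value. Without that window replicate 2 stood at 61.04% instead of 40.7%, and replicate 3 at 16.7% instead of 27.8%. The control mean was then 37.7% and the difference -23.2 points. The SD among control embryos was 33.4 points over the Peg10 and Sgce windows and 23.5 points over the Mest start and Mir335 windows; the difference between these spreads was not tested.

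The embryos with values at both promoters allowed the regions to be set side by side, using the Peg10 and Sgce windows and the Mest start and Mir335 windows. Control replicates 1 and 2 were high at both, with 62.1% and 61.04% at Peg10-Sgce and 56.7% and 44.5% at Mest. Control replicates 3 and 5 were low at Peg10-Sgce (16.7% and 15.5%) and high at Mest (41.03% and 51.2%), and replicates 4 and 10 stood at 25.02% and 21.7% at Peg10-Sgce against 17.2% and 4.65% at Mest. Control replicate 6 was low at both (0% and 8.93%). Among mutant embryos replicate 17 was at 0% in both, replicate 11 stood at 6.25% and 3.91%, replicate 14 at 7.70% and 15.9%, and replicate 12 at 23.2% and 7.14%. No mutant embryo with values in both regions reached control replicates 1 and 2 in either, but these were the highest controls listed at Peg10-Sgce. Mutant replicate 12 lay above control replicates 3, 5, 6 and 10 at Peg10-Sgce. At Mest, mutant replicate 14 lay above control replicates 6 and 10. Mutant replicate 16, at 50% in the Sgce window, had no value in the Mest start and Mir335 windows and is not in this comparison.

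Windows that start within 500 kb of each region were compared in the same fit. Next to Peg10-Sgce, 15 of 24 neighbours could be tested, 10 had a lower and 5 a higher mean in mutant embryos, and the median difference was -1.69 points. Next to the Mest region all 30 neighbours were tested, 10 had a lower and 20 a higher mean, and the median difference was 1.51 points. None of these neighbours passed the threshold in limma, and 1 in each set had an unadjusted p under 0.05. The tested neighbours carried less methylation in control embryos than most windows of the 2 regions, with medians of 7.77% and 7.95%. Those medians leave out the Peg10-Sgce neighbours with too few embryos to test. Their control means ran from 0% (chr6:4596152-4599651, 3 control embryos) to 71.0% (chr6:4364774-4368273, 2 control embryos). Around Peg10-Sgce the lowest differences were -27.5 points at chr6:4387920-4391419 and -24.5 points at chr6:4829227-4832726, and the highest 14.8 points at chr6:4893279-4896778 and 12.7 points at chr6:4607234-4610733. Around Mest they were -19.9 points at chr6:30376100-30379599 and -13.3 points at chr6:30636217-30639716, against 40.3 points at chr6:30304039-30307538, the window that the spacing tied to Ube2h, and 25.9 points at chr6:30935514-30939013.

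**Figure D3:**
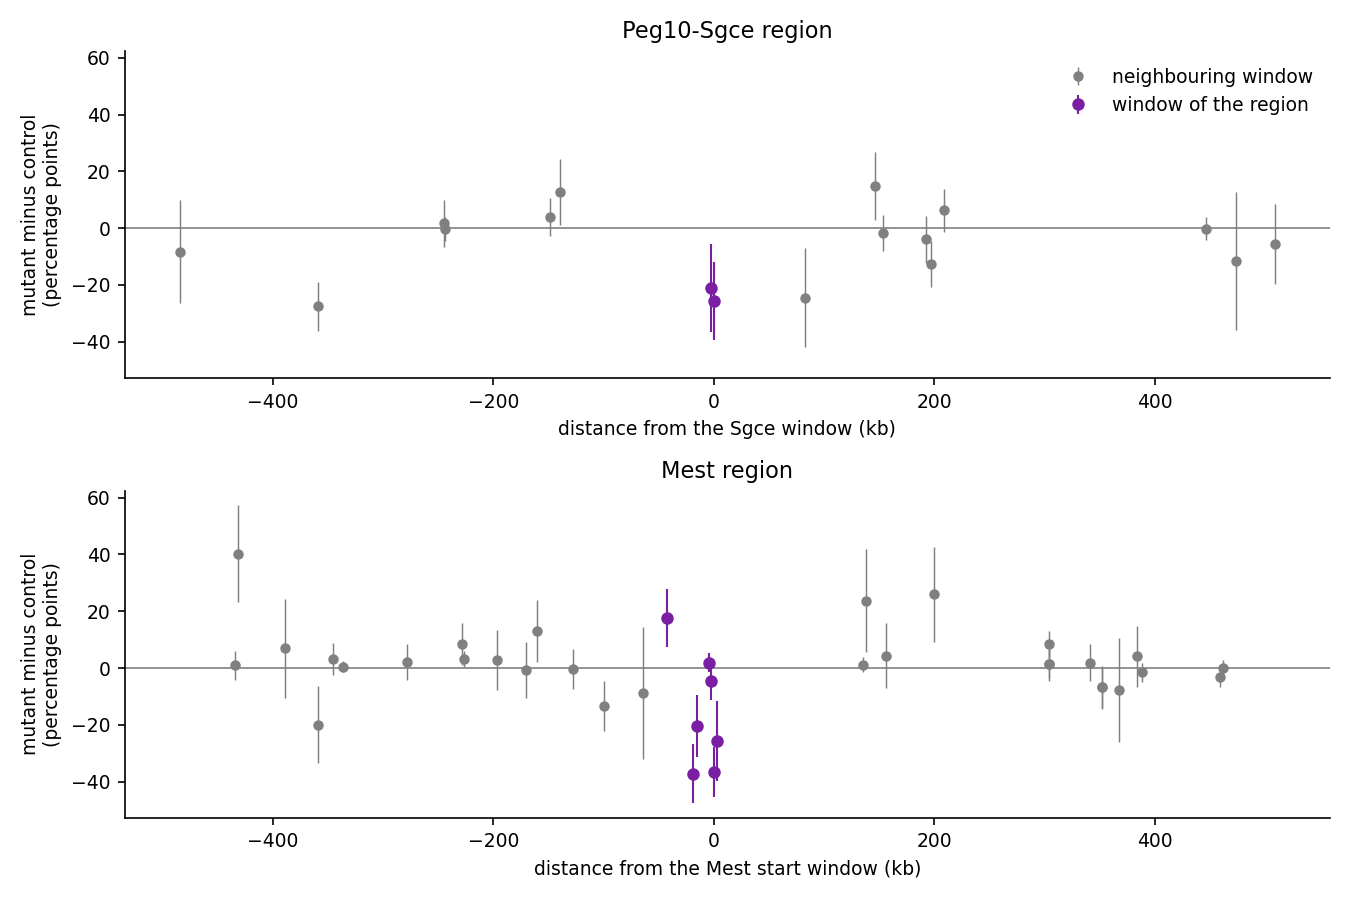
Difference in mean methylation, mutant minus control in percentage points with its limma standard error, for each tested window by distance in kb from the Sgce window (top) and the Mest start window (bottom). The windows of the 2 regions (purple) lie between -37.2 and 17.6 points, and the neighbours (grey) between -27.5 and 40.3 points.

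**Figure D4:**
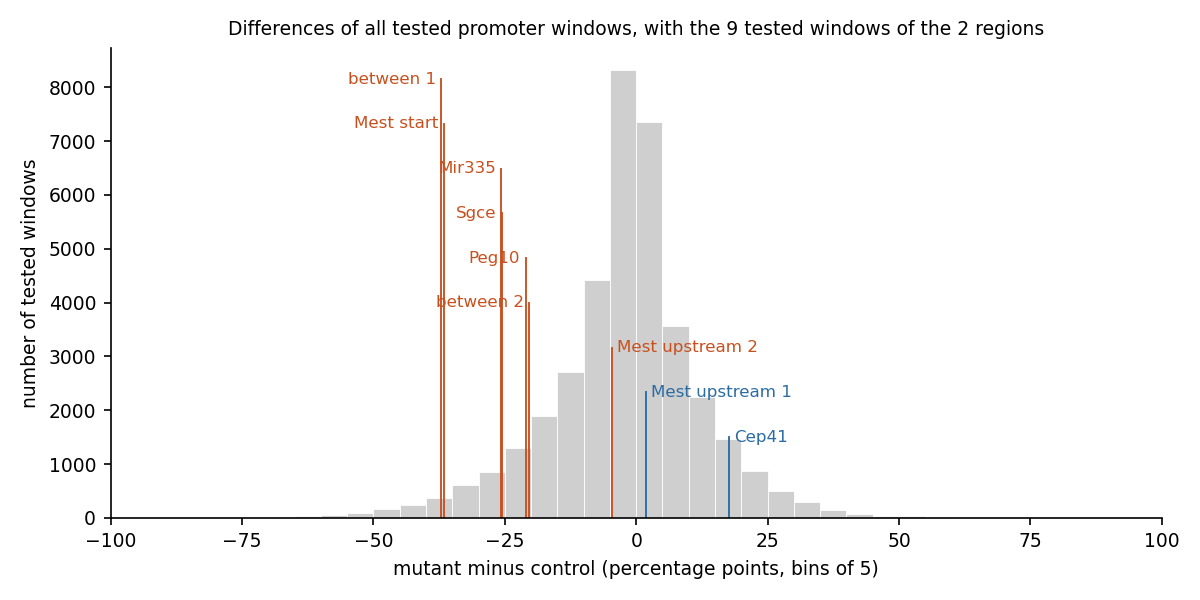
Histogram of the difference, mutant minus control in percentage points, over all 37645 tested windows in bins of 5 points, with the 9 tested windows of the 2 regions as lines. The median of all windows is -1.07 points, and 6 of the 9 lines lie at or below -20 points; the median control level of all windows is 9.66%, so most could not reach that far.

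The windows elsewhere on the autosomes whose levels followed the regions most closely were found by the mean absolute difference from the embryo means of a region, over at least 12 shared embryos. For Peg10-Sgce the closest of 1640 windows was chr7:139566288-139569787, at 8.50 points over 12 embryos, followed by chr8:96439509-96443008 (9.75 points) and chr10:61965869-61969368 (10.3 points). For the 4 Mest windows the closest of 2287 was chr17:29275718-29279217, at 4.54 points over 12 embryos, followed by chr9:121105764-121109263 (5.30 points, 13 embryos) and chr19:58928857-58932356 (6.23 points, 12 embryos). The closest window to Mest stood at 18.9% in control and 5.33% in mutant embryos. These are the best of many and are given as a description.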

How the data were processed

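The authors deposited a table of methylation levels in percent per promoter window and embryo. Reads had been trimmed with Trim Galore 0.4.4 and aligned with Bismark 0.18.2 to GRCm39, per the submitters' processing notes; the sources used here do not say how calls were combined in a window or whether a coverage minimum applied. Repeated rows (46) were dropped. Of the 491705 values left, 1594 (0.324%) were whole numbers above 100, so a column as deposited is a score without an upper bound. They were taken for percents printed without a decimal point and were divided by 1000, and this reading is an assumption. Of the 109 values of the 10 windows, 0 were among them.

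Windows covered in 3 or more embryos per group were compared with limma 3.58.1 in R 4.3.3 (lmFit, eBayes, untransformed percent), adjusted over all 37645 windows, with a threshold of 0.05. Exact permutation tests over embryos are two-sided and unadjusted. The procedure was tested on simulated data. Per-embryo values were to be given for the best-covered window of each region, for every window past the threshold and for every window not overlapping these. The Peg10 and second upstream Mest windows lie outside that rule and were described after their values were seen. The regions, windows and tests were chosen with earlier results of these data known. Window names were given by spacing against a RefSeq table of build GRCm38.p6, and promoter and microRNA sequences are RefSeq's.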

Additional observations from a re-analysis of the deposited data

Results flagged for a closer look

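The check covered 20 groups of 4 to 10 values. In 3 of them the gap of an embryo to the next one was a large share of the range of its group. For normally distributed values chance gives about 1 in 20. The values here are percents with many at 0%, so that rate need not hold for them. In the Sgce window, mutant replicate 16 stood at 50%, with the next mutant embryo at 13.04% (gap 0.739 of the range, limit 0.625). In the Mir335 window, mutant replicate 14 stood at 30% and the other 3 mutant embryos at 0% (gap 1 of the range, limit 0.829). With those 3 at 0%, any value of replicate 14 above 0% would have passed the limit. In the Cep41 window, control replicate 2 stood at 28.6%, with the next at 12.5% (gap 0.5625 of the range, limit 0.526). Replicate 16 is sparsely covered and the other 2 embryos are densely covered; the read depth behind these values is unknown.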

How the results depend on the processing

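The count of 0 windows past the threshold was 0 in all 8 alternative fits that could test any of the 9 windows and in all 20 fits that left out a single embryo (limma, or an exact rank-sum test; lowest adjusted p of any window 0.149, without control replicate 10). With at least 7 embryos per group, and in sparsely covered embryos alone, none of the 9 windows could be tested. Only 3 of the 9 were tested with at least 5 embryos per group, and 7 in densely covered embryos alone. Leaving out mutant replicate 11 or 12 also left 7. The window with the largest difference, chr6:30716872-30720371, could not be tested when mutant replicate 11, 12 or 19 was left out. The 238 single-window estimates under alternatives all kept their direction, but many of them could not change. The rank-sum test, trend and robust fitting and leaving out numbers above 100 keep the main difference in these windows. Leaving out an embryo without a value in a window keeps it as well. Over the whole table the 14 windows past the threshold became 0 with at least 5 embryos per group, 0 with trend and robust fitting, 0 with the rank-sum test, 1 on the arcsine scale, 27 after quantile normalization, 3 with at least 7 embryos and 0 to 18 without single embryos.

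The Mest difference of -18.1 points became 1.84 with 1 window alone, the first upstream one, which was taken for its lower start among 3 windows with a value in 13 embryos each (the Mest start and Mir335 windows, the other two, differed by -36.6 and -25.7). It became -28.8 without values of exactly 0 and 100, -33.1 at and after the main start, -1.58 upstream of it, and -26.9 at and after it in densely covered embryos; the last 3 were chosen after seeing the data. Without single embryos it ran from -20.2 to -16.6. The Peg10-Sgce difference of -23.1 points ran from -33.3 to -13.6 under its other alternatives and from -30.2 to -14.2 without single embryos; requiring 3 windows per embryo left no mutant embryo. No paired analysis was possible because the groups share no replicate number. With 3 to 6 mutant embryos per window and unknown read depth, small differences are not detectable. Differences as large as -36.6 and -37.2 points did not pass the adjusted threshold either. The count of 0 windows therefore does not show that the groups have equal levels.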
